A study of Homo sapiens with 10 samples.

Results

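Iron- and 2-oxoglutarate-dependent dioxygenases were followed as a list of 44 genes, chosen by name, with earlier results of these data known. It holds 18 Jumonji C (JmjC) proteins grouped as histone demethylases, 5 other JmjC enzymes, 3 TET enzymes, 7 of the FTO and ALKBH family, 6 collagen-modifying hydroxylases, the protein hydroxylases OGFOD1, OGFOD2 and ASPH, and TMLHE and BBOX1 of carnitine synthesis. The HIF prolyl hydroxylases were not in the list. All 44 were found among the 54628 symbols of the deposited table, and a filter on low counts kept 38 of them among 20125 genes.

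These enzymes hold a ferrous iron in the active site and use molecular oxygen to oxidise their substrate, while 2-oxoglutarate is turned into succinate and carbon dioxide. JmjC histone demethylases remove methyl groups from histone lysines, TET enzymes oxidise methylcytosine in DNA, FTO and ALKBH enzymes act mainly on alkylated bases of DNA or RNA, and the collagen enzymes hydroxylate proline and lysine in the endoplasmic reticulum. The values below are transcript levels, and enzyme activity was not measured.

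The samples were 10 libraries of polyadenylated RNA from NK-92, an established line of human natural killer lymphoma cells kept in Artemis Medium-1 with human serum. The groups were cells given 500 µM of the iron chelator deferoxamine (DFO) for 6 h or 24 h, cells given 10 µg/mL of PPMX-T003 (T003), an antibody to transferrin receptor 1, for 6 h or 24 h, and untreated cells at 0 h, with 2 libraries each. Untreated cells at 6 h or 24 h were not analysed here, so agent and time in culture cannot be told apart in any comparison with untreated cells. Whether the 2 libraries of a group came from separate cultures is not stated. The p-values therefore speak only of spread among libraries, which may be technical.

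Library totals lay between 107117892 and 143575614 estimated counts. Levels are counts per 10⁶ (CPM) scaled by the TMM method. TFRC, the transcript of transferrin receptor 1, stood at 361.0 and 344.8 CPM (DFO, 6 h), 834.3 and 833.1 (DFO, 24 h), 437.0 and 418.7 (T003, 6 h), 845.0 and 846.8 (T003, 24 h), and 177.0 and 165.1 CPM in untreated cells, every treated library above both untreated ones. The 8 natural killer cell markers examined (among them NCAM1, NKG7 and GNLY) summed to 2700 to 3229 CPM. MS4A1, CD79B, EPCAM, KRT18 and HBB were at 0 in all 10 libraries. The 4 B cell markers summed to 0.146 to 0.329 CPM, the 4 erythroid ones to 0 to 0.1525 and the 3 epithelial ones to 0 to 0.0339. The 4 myeloid markers summed to 2.20 to 3.38 CPM. Of 6 T cell markers CD3G was at 0 and CD3E at 415 to 459 CPM, within a sum of 436 to 482 CPM. Of 4 fibroblast markers PDGFRB stood at 81.7 to 112 CPM, within a sum of 82.4 to 113 CPM. PDGFRB was lower at 24 h, with log2 fold changes of -0.38 (SE 0.037, adjusted p = 0.000179) for DFO and -0.31 (SE 0.037, adjusted p = 0.000452) for T003 by edgeR, and its part in the results below was not tested. Fewer cells of a kind and less RNA per cell cannot be told apart in bulk libraries.

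Transcript levels of the dioxygenases ranged widely in untreated cells. Per kilobase of the canonical GENCODE v44 transcript, OGFOD1, which hydroxylates a proline of the ribosomal protein RPS23, came first at 45.1 ± 0.0308 CPM per kb (SD, n = 2). The H3K4 demethylase KDM5C followed at 35.0 ± 0.536, then the H3K36 demethylase KDM2A at 31.3 ± 0.191 and the alkylation repair enzyme ALKBH3 at 30.04 ± 1.78 CPM per kb. KDM2A and ALKBH3 lay within the SD of ALKBH3 of each other. At the low end stood KDM7A at 2.60 ± 0.171 and PLOD2 at 2.45 ± 0.127 CPM per kb, also within their SD, then KDM4D at 1.26 ± 0.205 and TET2 at 0.184 ± 0.0273 CPM per kb. TET3 stood at 7.91 ± 0.342 CPM per kb, well above TET2.

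**Figure D1:**
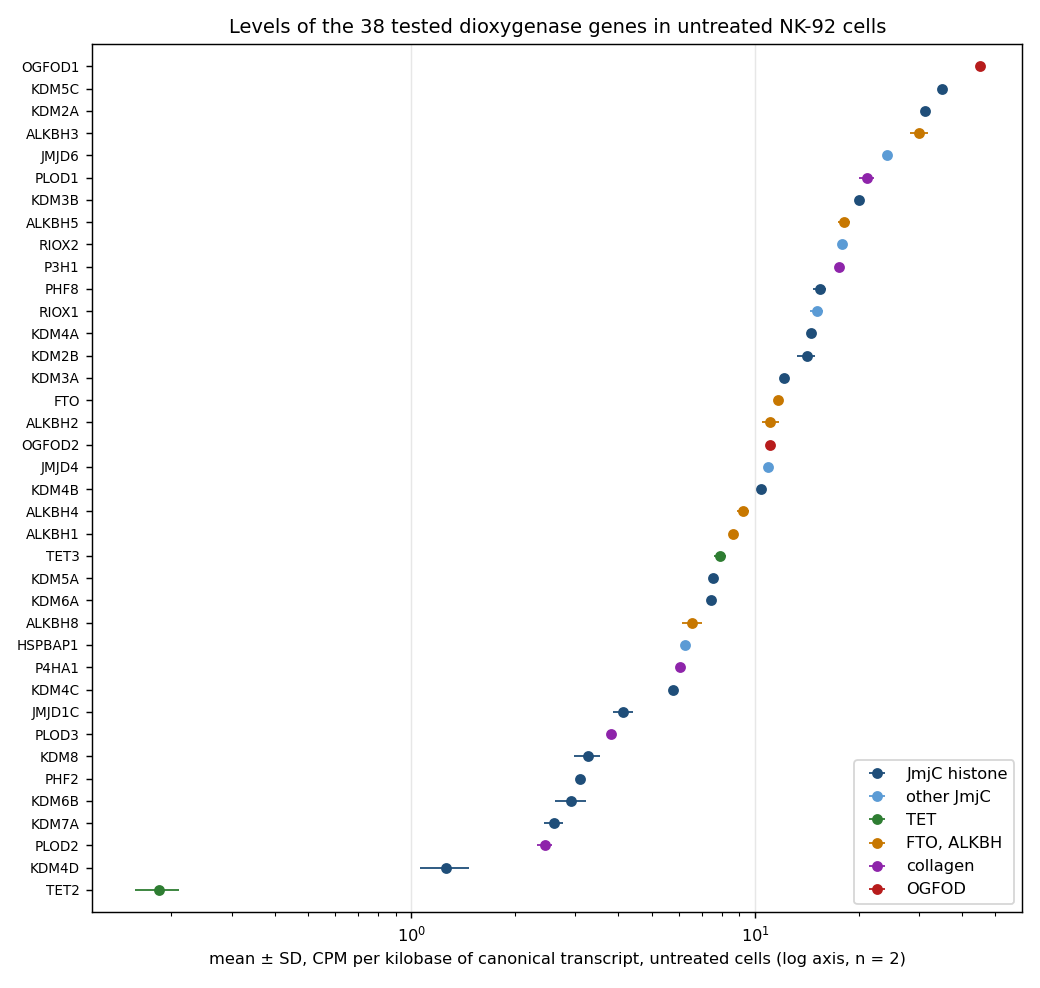
Mean ± SD level per kilobase of canonical transcript in untreated cells (x axis, CPM per kb, log axis, n = 2) for the 38 tested genes (y axis), coloured by enzyme family. OGFOD1 is highest at 45.1 and TET2 lowest at 0.184 CPM per kb.

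The 6 untested genes had few or no counts. KDM5B, another H3K4 demethylase, the aspartyl hydroxylase ASPH, and BBOX1, which makes the last step of carnitine synthesis, were listed at 0 in all 10 libraries. The limit that a count of 0 allows, taken as 3 counts, was 0.0209 to 0.0280 CPM by library and covers counting error only. Whether a gene listed at 0 in all of these libraries had no transcript or was missed in the estimate cannot be told from the table, and the limit holds only if reads of the gene would have been counted. TET1 had 13 counts in DFO 24 h replicate 1 and 3 in untreated replicate 2, and 0 elsewhere. TMLHE, which makes the first step of carnitine synthesis, had 0 to 6 counts, and P4HA2, a catalytic subunit of collagen prolyl 4-hydroxylase, also had 0 to 6.

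At 24 h of DFO the transcripts of the histone demethylase KDM7A and the collagen lysyl hydroxylase PLOD2 fell most, to 0.664 and 0.667 times the untreated level. The H3K27 demethylases moved in opposite directions, KDM6A lower and KDM6B higher. KDM4A, KDM2A and ALKBH3 fell by less, and OGFOD1 rose slightly. By edgeR's quasi-likelihood test with Benjamini-Hochberg adjustment over 20125 genes, 8 of the 38 passed an adjusted p under 0.05, where 6.70% of all tested genes did. Of these 2 were higher, beside 3.43% of all tested genes, and 6 lower, beside 3.27%. Among the 11519 genes at or above the mean level of TET2 (1.73 CPM), the lowest tested member, 11.2% passed. The median log2 fold change was -0.0045 over the 38 and -0.0023 over all tested genes.

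At 24 h of T003 KDM7A and PLOD2 again fell most, to 0.624 and 0.658 times the untreated level. KDM6A, KDM4A, ALKBH3 and PLOD1 fell too. KDM6B, the DNA oxidase TET3, the tRNA-modifying ALKBH8, the collagen prolyl hydroxylase subunit P4HA1 and OGFOD1 rose. In all 11 of the 38 passed, where 12.5% of all tested genes and 20.6% of the 11519 did, 5 of them higher (7.10% of all tested genes) and 6 lower (5.44%). The median log2 fold change was -0.0012 over the 38 and -0.0069 over all tested genes. Both comparisons rest on the same untreated libraries and are not independent. With only 2 libraries a group, the treated and untreated libraries did not overlap for 49.3% of all tested genes with DFO and 52.8% with T003, so lack of overlap alone sets no gene apart.

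**Figure D2:**
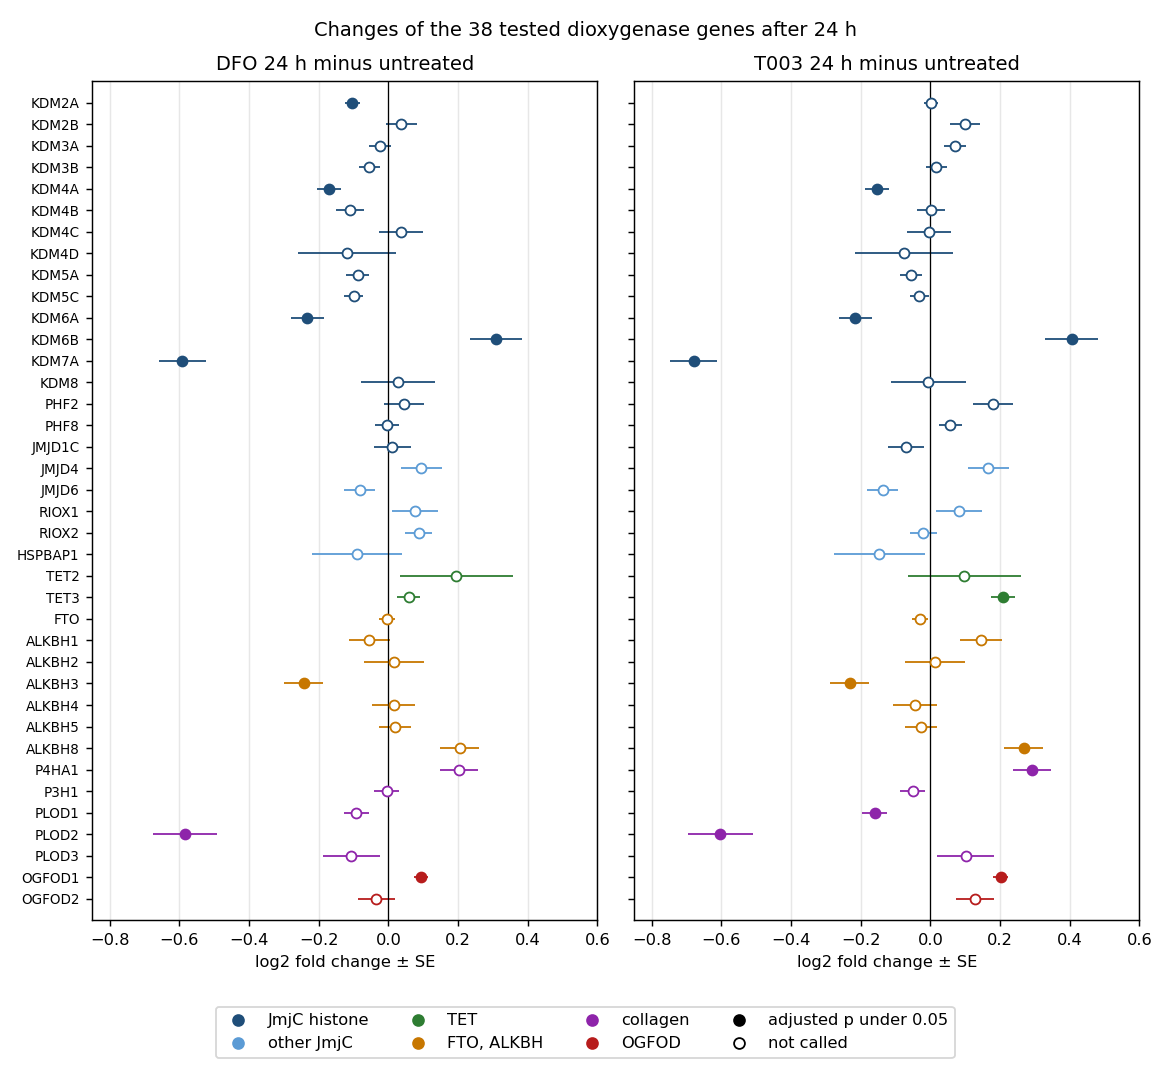
Log2 fold change ± SE (x axis) of the 38 tested genes (y axis) at 24 h of DFO (left) and of T003 (right), each against untreated cells (n = 2 libraries a group), coloured by enzyme family, with filled points for an adjusted p under 0.05. KDM7A and PLOD2 lie farthest to the left and KDM6B farthest to the right in both panels.

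PLOD2 and P4HA1 are known targets of hypoxia-inducible factor (HIF), whose binding sites hold a core of ACGTG or GCGTG. KDM7A is not among the HIF targets listed here. The promoter windows given were chosen with the changes above known: those of KDM7A and PLOD2, which fell with both agents, and P4HA1, which rose with T003. Each runs from 250 bases before to 50 after the RefSeq start (GRCh38.p14), 5′ to 3′ on the gene's own strand, with either core, on either strand, in capitals.
KDM7A, chr7:140176934-140177233, minus strand: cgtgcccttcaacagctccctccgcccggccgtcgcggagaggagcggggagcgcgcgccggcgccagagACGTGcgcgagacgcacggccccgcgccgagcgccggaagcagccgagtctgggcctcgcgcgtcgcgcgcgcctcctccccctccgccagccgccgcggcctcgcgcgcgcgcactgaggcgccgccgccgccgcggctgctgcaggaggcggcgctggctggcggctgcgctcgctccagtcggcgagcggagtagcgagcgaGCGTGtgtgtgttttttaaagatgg
PLOD2, chr3:146161135-146161434, minus strand: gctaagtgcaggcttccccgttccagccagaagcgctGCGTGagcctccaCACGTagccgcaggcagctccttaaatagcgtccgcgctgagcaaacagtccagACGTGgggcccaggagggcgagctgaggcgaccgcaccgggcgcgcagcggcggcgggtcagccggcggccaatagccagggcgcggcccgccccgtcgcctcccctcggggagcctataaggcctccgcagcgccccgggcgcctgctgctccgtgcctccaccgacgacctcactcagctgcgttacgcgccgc
P4HA1, chr10:73096817-73097116, minus strand: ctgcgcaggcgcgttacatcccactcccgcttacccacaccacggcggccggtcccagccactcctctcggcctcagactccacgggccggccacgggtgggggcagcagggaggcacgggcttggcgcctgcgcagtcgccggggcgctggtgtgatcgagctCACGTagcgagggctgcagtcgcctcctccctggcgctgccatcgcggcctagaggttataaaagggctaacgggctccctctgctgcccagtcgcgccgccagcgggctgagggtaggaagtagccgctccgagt
KDM7A held ACGTG at positions -180 to -176 from its start and GCGTG at 26 to 30. PLOD2 held GCGTG at -213 to -209, ACGTG on the opposite strand at -200 to -196, and ACGTG at -146 to -142. P4HA1 held ACGTG on the opposite strand at -86 to -82. Windows were found for 40 of the 44 genes, 58 in all, of which 22.4% held ACGTG and 55.2% GCGTG, beside 21.4% and 36.5% of 35116 windows of all genes. Some genes have more than 1 window, so these are shares of windows and not of genes. Among windows of members the most matches, 7, were in that of HSPBAP1, which was called in no comparison. A match describes the letters, and no binding was measured.

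KDM7A (chromosome 7, 140084746 to 140176983, hg38, minus strand) removes methyl groups from H3K9 and H3K27. It stood at 26.3 and 24.8 CPM (DFO, 6 h), 15.5 and 16.2 (DFO, 24 h), 25.9 and 23.6 (T003, 6 h), 15.1 and 14.8 (T003, 24 h), and 22.8 and 25.1 CPM in untreated cells. All 4 libraries at 24 h lay below the 6 others, while those at 6 h overlapped the untreated ones. The log2 fold change at 24 h was -0.59 (SE 0.067, adjusted p = 0.000413) for DFO, and -0.68 (SE 0.067, adjusted p = 0.000113) for T003. Its paralog PHF8 had 0.00 (adjusted p = 0.976) for DFO and 0.06 (adjusted p = 0.342) for T003, and its paralog PHF2 had 0.05 (adjusted p = 0.772) for DFO and 0.18 (adjusted p = 0.0669) for T003. Neither was called by edgeR, while PHF2 was higher with T003 by limma-voom (adjusted p = 0.0420) and, by edgeR, with a filter of 1 CPM in 2 libraries (0.0498).

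KDM6A and KDM6B both demethylate H3K27. KDM6A (chromosome X, 44873188 to 45112779, plus strand) stood at 47.9 and 44.6 CPM (DFO, 6 h), 38.1 and 38.8 (DFO, 24 h), 45.3 and 45.9 (T003, 6 h), 37.2 and 40.6 (T003, 24 h), and 44.9 and 45.5 CPM in untreated cells. The 24 h libraries were the low ones and did not overlap the rest. Its log2 fold change at 24 h was -0.23 (SE 0.048, adjusted p = 0.0151) for DFO, and -0.22 (SE 0.048, adjusted p = 0.0136) for T003. KDM6B (chromosome 17, 7834217 to 7854796, plus strand), whose transcript is known to be inducible by inflammatory stimuli, stood at 16.9 and 18.2 CPM (DFO, 6 h), 24.1 and 24.6 (DFO, 24 h), 17.7 and 18.8 (T003, 6 h), 26.96 and 25.1 (T003, 24 h), and 21.1 and 18.2 CPM in untreated cells. Here the 24 h libraries were the high ones, again without overlap. Its log2 fold change at 24 h was 0.31 (SE 0.075, adjusted p = 0.0327) for DFO, and 0.41 (SE 0.075, adjusted p = 0.00495) for T003.

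KDM4A, which demethylates H3K9 and H3K36, stood at 66.8 and 63.6 CPM (DFO, 6 h), 59.3 and 56.95 (DFO, 24 h), 64.2 and 64.2 (T003, 6 h), 59.5 and 58.05 (T003, 24 h), and 64.96 and 65.9 CPM in untreated cells. The 24 h libraries lay below all others. The log2 fold change was -0.17 (SE 0.034, adjusted p = 0.0135) for DFO, and -0.15 (SE 0.034, adjusted p = 0.0134) for T003. Another gene on the same strand shares 40.2% of the exon bases of KDM4A in GENCODE v44, so the value of KDM4A is uncertain if reads were split. Whether the RefSeq annotation used for counting holds that gene was not checked. KDM2A stood at 226.7 and 229.7 CPM (DFO, 6 h), 217.2 and 212.9 (DFO, 24 h), 230.9 and 231.3 (T003, 6 h), 231.7 and 231.1 (T003, 24 h), and 230.1 and 232.1 CPM in untreated cells. Only the DFO 24 h libraries lay apart and below, at -0.10 (SE 0.021, adjusted p = 0.0145), and for T003 the value was 0.00 (adjusted p = 0.98). Of the 17 tested genes of this family 1 was higher and 4 lower with DFO, and 1 higher and 3 lower with T003, with medians of -0.055 and -0.0035. Of all tested genes 3.43% were higher and 3.27% lower with DFO, and 7.10% higher and 5.44% lower with T003. KDM2B, KDM3A, KDM3B, KDM4B, KDM4C, KDM4D, KDM5A, KDM5C, KDM8, JMJD1C, PHF2 and PHF8 were called by edgeR in neither comparison at 24 h. KDM5C came nearest with DFO, at -0.10 (adjusted p = 0.0561), and it passed by DESeq2 (0.0138), by limma-voom (0.0385) and with a filter of 1 CPM in 2 libraries (0.0314).

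None of the 5 other JmjC enzymes was called at 24 h by edgeR, DESeq2 or limma-voom. Of all 20125 tested genes, 3822 with DFO and 4882 with T003 had an unadjusted p under 0.05 by edgeR. Of the 5 enzymes 1 did with DFO and 2 with T003. JMJD6, a lysyl hydroxylase of splicing factors, had the smallest p, and its level was 40.5 and 38.3 CPM (DFO, 6 h), 37.6 and 36.7 (DFO, 24 h), 39.8 and 37.6 (T003, 6 h), 36.2 and 35.3 (T003, 24 h), and 38.6 and 40 CPM in untreated cells. Its libraries at 24 h lay below the untreated ones, at -0.08 (adjusted p = 0.375) for DFO and -0.14 (adjusted p = 0.0721) for T003, where it passed with a filter of 1 CPM in 2 libraries (0.0358). JMJD4, RIOX1, RIOX2 and HSPBAP1 lay between -0.15 and 0.17 at 24 h with either agent. SNAP47 is antisense to 53.8% of the exon bases of JMJD4 and CRYBG3 to 27.9% of those of RIOX2. The sources used here do not say whether counting used strand, so reads of such partners cannot be told apart.

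Of the enzymes that act on nucleic acids, TET3 (chromosome 2, 73983631 to 74135498, plus strand) stood at 98.02 and 94.1 CPM (DFO, 6 h), 98.4 and 100.3 (DFO, 24 h), 99.7 and 101.3 (T003, 6 h), 110.5 and 109.9 (T003, 24 h), and 98.3 and 92.5 CPM in untreated cells. The T003 24 h libraries were the highest of all, at 0.21 (SE 0.033, adjusted p = 0.00214). For DFO the value was 0.06 (adjusted p = 0.398), and the direct difference of DFO minus T003 at 24 h was -0.15 (adjusted p = 0.0561). That difference passed by DESeq2 (0.00454), by limma-voom (0.0447), with a filter of 1 CPM in 2 libraries (0.0413) and without untreated replicate 1 (0.0499). TET2 had 0.20 (adjusted p = 0.606) for DFO and 0.10 (adjusted p = 0.803) for T003.

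ALKBH3, which repairs alkylated bases in single strands, stood at 46.4 and 46.9 CPM (DFO, 6 h), 40.9 and 37.5 (DFO, 24 h), 45.7 and 47.3 (T003, 6 h), 37.9 and 41.1 (T003, 24 h), and 44.4 and 48.3 CPM in untreated cells. The 24 h libraries were the low ones, at -0.24 (SE 0.056, adjusted p = 0.0265) for DFO, and -0.23 (SE 0.056, adjusted p = 0.0202) for T003. ALKBH8, which modifies the wobble uridine of tRNA, stood at 28.6 and 30.9 CPM (DFO, 6 h), 30.2 and 31.5 (DFO, 24 h), 29.5 and 29.7 (T003, 6 h), 32.2 and 32.1 (T003, 24 h), and 28.03 and 25.4 CPM in untreated cells. The untreated libraries were the lowest, and T003 at 24 h gave 0.27 (SE 0.056, adjusted p = 0.0102). With DFO the value was 0.21 (adjusted p = 0.0563), and it passed by DESeq2 (0.0203), by limma-voom (0.0403), with a filter of 1 CPM in 2 libraries (0.0379) and without untreated replicate 1 or either DFO 6 h library (0.0349 to 0.0448). FTO and ALKBH5, which demethylate N6-methyladenosine in RNA, lay between -0.03 and 0.02, and ALKBH1, ALKBH2 and ALKBH4 between -0.05 and 0.15, none of them called.

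The collagen enzymes moved in both directions. PLOD2 (chromosome 3, 146069440 to 146161184, minus strand), which hydroxylates the telopeptide lysines that form collagen cross-links, stood at 11.3 and 10.3 CPM (DFO, 6 h), 5.85 and 6.38 (DFO, 24 h), 9.84 and 8.73 (T003, 6 h), 5.98 and 6.09 (T003, 24 h), and 8.84 and 9.51 CPM in untreated cells. Every 24 h library lay below every other library, at -0.58 (SE 0.093, adjusted p = 0.00367) for DFO, and -0.60 (SE 0.093, adjusted p = 0.00178) for T003. The DFO 6 h libraries lay above the untreated ones, at a value that did not pass, 0.23 (adjusted p = 0.341). PLOD1, which hydroxylates lysines of the collagen helix, stood at 63.9 and 62.2 CPM (DFO, 6 h), 59.6 and 58.4 (DFO, 24 h), 64.7 and 64.1 (T003, 6 h), 56.5 and 55.97 (T003, 24 h), and 60.6 and 65.1 CPM in untreated cells. At 24 h it was lower with T003, at -0.16 (SE 0.036, adjusted p = 0.0152), and with DFO had -0.09 (adjusted p = 0.187).

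P4HA1 (chromosome 10, 73007217 to 73096866, minus strand) stood at 17.6 and 17.3 CPM (DFO, 6 h), 19.3 and 19.02 (DFO, 24 h), 16.99 and 18.1 (T003, 6 h), 20.2 and 20.5 (T003, 24 h), and 16.4 and 16.8 CPM in untreated cells. The untreated libraries were the lowest, and T003 at 24 h gave 0.29 (SE 0.055, adjusted p = 0.00573). With DFO the value was 0.20 (adjusted p = 0.055), and it passed by DESeq2 (0.0453), by limma-voom (0.03) and with a filter of 1 CPM in 2 libraries (0.0396). P3H1 and PLOD3 lay between -0.11 and 0.10 and were not called. Of the 8 members known as HIF targets (PLOD1, PLOD2, P4HA1, P4HA2, KDM2B, KDM3A, KDM4B and KDM4C) 7 were tested. With DFO 0 were higher and 1 lower, and with T003 1 was higher and 2 lower, with medians of -0.023 and 0.0010, beside the shares of all tested genes of 3.43% higher and 3.27% lower with DFO, and 7.10% higher and 5.44% lower with T003. DESeq2 and limma-voom each called 1 higher with DFO, P4HA1. By edgeR with DFO 4 of the 7 had an unadjusted p under 0.05, beside 3822 of all 20125 tested genes. Of the 7, 3 had a positive and 4 a negative log2 fold change with DFO.

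OGFOD1 (chromosome 16, 56451524 to 56479104, plus strand) stood at 213.4 and 214.4 CPM (DFO, 6 h), 218.6 and 223.1 (DFO, 24 h), 208.8 and 209.6 (T003, 6 h), 237.1 and 238.7 (T003, 24 h), and 206.8 and 207.0 CPM in untreated cells. All treated libraries lay above the untreated ones, and those of T003 at 24 h were highest. Its log2 fold change at 24 h was 0.09 (SE 0.021, adjusted p = 0.0219) for DFO, and 0.20 (SE 0.021, adjusted p = 0.000157) for T003. BBS2 is antisense to 8.6% of its exon bases. OGFOD2 stood at 18.4 and 18.2 CPM (DFO, 6 h), 18.4 and 19.4 (DFO, 24 h), 18.7 and 18.6 (T003, 6 h), 20.7 and 21.6 (T003, 24 h), and 19.1 and 19.6 CPM in untreated cells, and had -0.03 (adjusted p = 0.828) for DFO and 0.13 (adjusted p = 0.171) for T003 at 24 h. In GENCODE v44 a gene on the same strand shares 67.6% of the exon bases of OGFOD2. Whether the RefSeq annotation used for counting holds that gene was not checked, so the value of OGFOD2 may be uncertain.

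**Figure D3:**
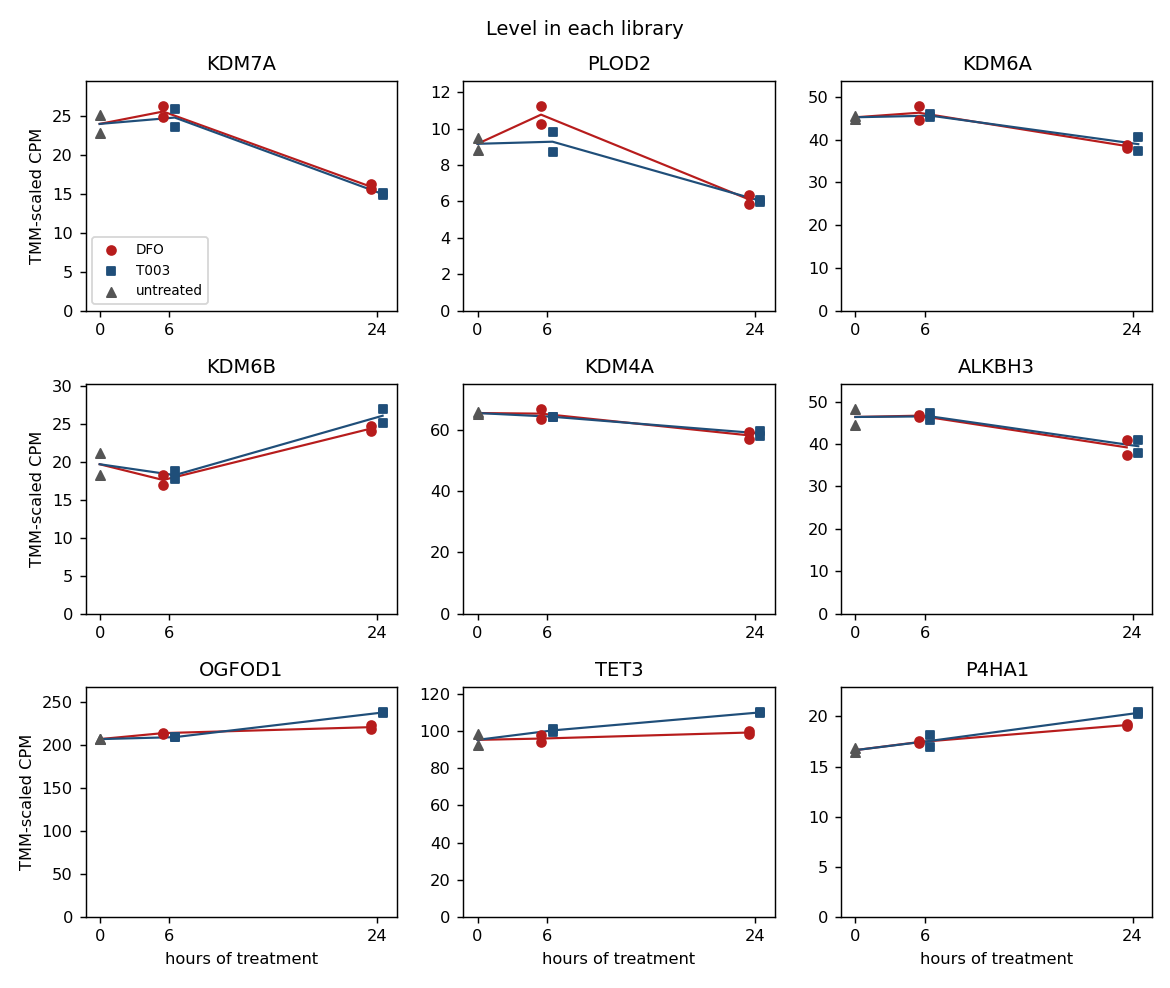
TMM-scaled CPM (y axis, from 0) in each library against hours of treatment (x axis) for 9 genes, with DFO as red circles, T003 as blue squares, untreated cells as grey triangles and lines through the means (n = 2). The 24 h points of KDM7A, KDM6A, KDM4A, ALKBH3 and PLOD2 lie below all earlier ones, and those of KDM6B above.

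In each of the smaller fits below, fewer of all tested genes passed than in the full model. Leaving out a library leaves 1 in its group, so an ended call does not by itself show dependence on that library. Many of the calls on members ended in such fits. Those of KDM7A and PLOD2 with both agents, and of OGFOD1, TET3 and P4HA1 with T003, passed under all 17 alternatives. Without untreated replicate 2 the DFO calls of KDM2A, KDM4A, KDM6A, KDM6B, ALKBH3 and OGFOD1 ended (adjusted p = 0.115 to 0.271), which left 2 genes. Without that library the T003 calls of KDM4A, KDM6A, KDM6B, ALKBH3, ALKBH8 and PLOD1 ended too (0.0568 to 0.19), which left 5. Without DFO 24 h replicate 2 the same 6 DFO calls ended (0.0739 to 0.217). Without DFO 24 h replicate 1 those of KDM2A, KDM6A and KDM6B ended (0.0561 to 0.0979), and without untreated replicate 1 those of KDM2A, KDM6A and OGFOD1 (0.0507 to 0.0932). Without T003 24 h replicate 1 the T003 calls of KDM6A, KDM6B, ALKBH3, ALKBH8 and PLOD1 ended (0.0547 to 0.155), and without T003 24 h replicate 2 those of KDM4A, ALKBH8 and PLOD1 (0.0625 to 0.0899). In a model of the 4 compared libraries alone, the DFO calls of KDM2A, KDM6B, ALKBH3 and OGFOD1 ended (0.057 to 0.0831). In that model 851 of all genes tested passed, beside 1349 in the full model.

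At 6 h none of the 38 passed with either agent, where 0.0248% of all tested genes passed with DFO and 0.0298% with T003. At an unadjusted p under 0.05 there were 5 of 38 with DFO and 3 of 38 with T003, beside 12.4% and 7.53% of all tested genes, and DESeq2 and limma-voom called 0 of the 38. Log2 fold changes ran from -0.25 to 0.23 with DFO and from -0.27 to 0.15 with T003, with TET2 lowest in both. The libraries did not overlap the untreated ones for 43.0% of all tested genes with DFO and 39.3% with T003. Between DFO and T003 at 6 h 0 of the 38 passed by edgeR, DESeq2 or limma-voom, where 0.00% of all tested genes did by edgeR, and 3 of the 38 had an unadjusted p under 0.05, beside 6.63%.

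Changes between 6 h and 24 h were compared within each agent, in libraries that the other agent does not share. With DFO 9 of the 38 passed, where 9.89% of all tested genes and 16.3% of the 11519 did, 2 of them higher (5.29% of all tested genes) and 7 lower (4.60%). With T003 11 passed, where 13.5% and 22.1% did, 5 of them higher (7.55%) and 6 lower (5.93%). KDM7A changed by -0.68 (SE 0.067, adjusted p = 0.000107) between 6 h and 24 h of DFO, and -0.73 (SE 0.067, adjusted p = 6.01e-05) of T003. PLOD2 changed by -0.82 (SE 0.093, adjusted p = 0.000297) with DFO, and -0.62 (SE 0.093, adjusted p = 0.00126) with T003. KDM6B was the one riser called with both, at 0.47 (SE 0.075, adjusted p = 0.00265) with DFO, and 0.51 (SE 0.075, adjusted p = 0.00108) with T003.

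KDM6A also fell, at -0.27 (SE 0.048) with DFO and -0.23 (SE 0.048) with T003. So did ALKBH3, at -0.25 (SE 0.056) with DFO and -0.24 (SE 0.056) with T003, and KDM4A, at -0.17 (SE 0.034) with DFO and -0.13 (SE 0.034) with T003. With DFO, KDM2A at -0.09 (adjusted p = 0.0274), the H3K4 demethylase KDM5A at -0.12 (adjusted p = 0.0452) and ALKBH4, a demethylase of actin, at 0.23 (adjusted p = 0.0386) passed as well. KDM5A stood at 84.3 and 80.5 CPM (DFO, 6 h), 77.7 and 74.4 (DFO, 24 h), 84.7 and 82.4 (T003, 6 h), 77.7 and 77.9 (T003, 24 h), and 80.5 and 81.2 CPM in untreated cells. With T003 it had -0.10 (adjusted p = 0.0588), and it passed with no filter, with 1 CPM in 2 libraries, in a model of the 4 compared libraries and without any 1 of the 4 DFO libraries (0.036 to 0.0499). ALKBH4 stood at 17.1 and 16.1 CPM (DFO, 6 h), 18.7 and 20.2 (DFO, 24 h), 17.4 and 17.8 (T003, 6 h), 18.9 and 18.5 (T003, 24 h), and 18.7 and 19.8 CPM in untreated cells. Its DFO 6 h libraries were the lowest, and ORAI2 is antisense to 25.6% of its exon bases. With T003, TET3 at 0.13 (adjusted p = 0.0214), P4HA1 at 0.21 (adjusted p = 0.0263), PLOD1 at -0.20 (adjusted p = 0.00479), OGFOD1 at 0.19 (adjusted p = 0.000217) and OGFOD2 at 0.18 (adjusted p = 0.0465) passed as well. Whether these changes differed between the agents was not tested.

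Of the 38 genes 28 moved the same way with both agents between 6 h and 24 h, as did 73.1% of the 11519 genes. Across the 38 genes, which are not independent, Pearson's r between the changes with DFO and with T003 was 0.920 and Spearman's rho 0.771, beside 0.441 and 0.603 across the 11519. The points share the time in culture and each library's scaling. Pearson's r weighs large changes most, and KDM7A, PLOD2 and KDM6B had the largest ones. The median absolute log2 change of the 38 was 0.0845 with DFO and 0.1022 with T003. How far r rests on these genes was not tested. Calls of KDM7A, PLOD2 and KDM6B with both agents, and of PLOD1 and OGFOD1 with T003, passed under all 17 alternatives. With DFO 3 genes passed without DFO 6 h replicate 1, 4 without DFO 24 h replicate 2, and 5 in a model of the 4 compared libraries. With T003 6 passed without either T003 6 h library, 5 without T003 24 h replicate 1 and 7 without T003 24 h replicate 2. KDM2A, KDM4A, KDM5A, ALKBH3 and ALKBH4 with DFO, and KDM4A, TET3, P4HA1 and OGFOD2 with T003, were among the calls that ended in these. Fewer of all tested genes passed in each of these fits too.

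**Figure D4:**
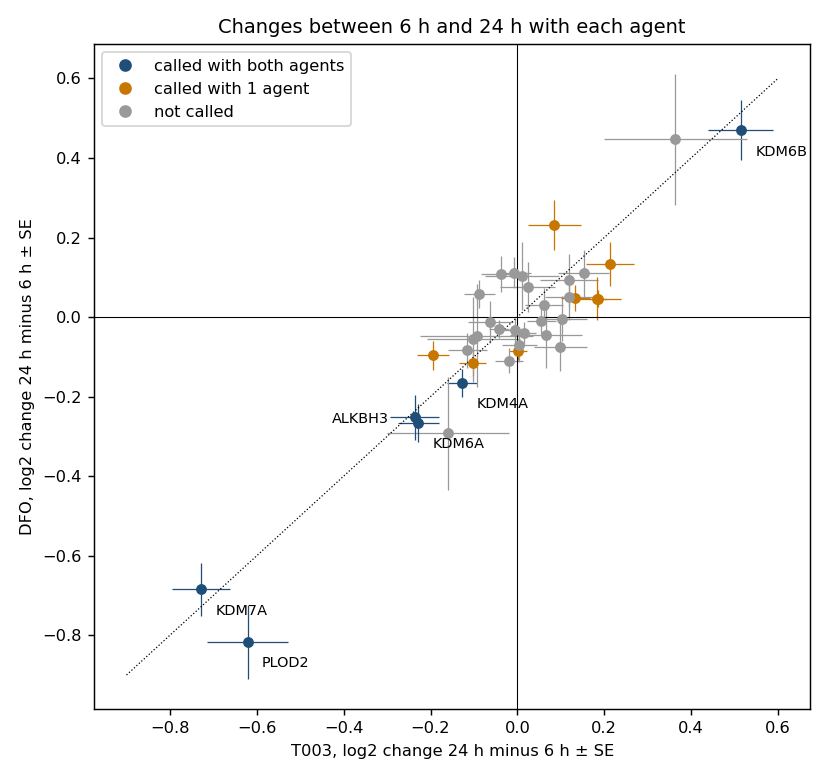
Log2 change between 6 h and 24 h ± SE with T003 (x axis) and with DFO (y axis) for the 38 tested genes. Blue points were called with both agents, orange with 1 and grey with neither, and the dotted line marks equal change; KDM7A and PLOD2 lie lowest, and KDM6B highest, of the points called with both.

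At 24 h the agents were compared directly. KDM2A was lower with DFO than with T003, at -0.11 (SE 0.021, adjusted p = 0.0416), and so was OGFOD1, at -0.11 (SE 0.021, adjusted p = 0.0377). Of the 38, 2 passed, both lower, where 1.34% of all tested genes passed (0.884% lower) and 2.31% of the 11519. Both calls ended without each of the 10 libraries in turn (adjusted p = 0.0541 to 0.272 for KDM2A, and 0.0546 to 0.251 for OGFOD1), with no filter (0.0818 and 0.078), with the replicate block (0.0711 and 0.0593) and in a model of the 4 libraries (0.116 for each). DESeq2, limma-voom and a filter of 1 CPM in 2 libraries each called 3, these and TET3. For KDM7A, PLOD2, KDM6A, KDM6B, KDM4A and ALKBH3 the difference lay between -0.10 and 0.09, with adjusted p from 0.651 to 0.97.

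Genes around these enzymes were read from lists, to be set beside the shares of all tested genes called by edgeR at 24 h. Those shares were 3.43% higher and 3.27% lower with DFO, and 7.10% higher and 5.44% lower with T003. An unadjusted p under 0.05 by edgeR was found for 3822 of the 20125 with DFO and 4882 with T003. Of 19 other 2-oxoglutarate enzymes 13 were tested, and at 24 h 0 were called with DFO by edgeR, DESeq2 or limma-voom (1 had an unadjusted p under 0.05 by edgeR) and 1 with T003, OGFOD3, at -0.26 (SE 0.054, adjusted p = 0.00957). The HIF hydroxylases EGLN1, EGLN2 and HIF1AN had 0.01, 0.05 and -0.03 for DFO and 0.10, 0.13 and 0.00 for T003, none called. KDM1A, a demethylase that uses flavin in place of iron, rose with each, at 0.09 (SE 0.023, adjusted p = 0.042) for DFO, and 0.09 (SE 0.023, adjusted p = 0.0311) for T003, while KDM1B was not called. All 20 histone methyltransferases were tested. With DFO 0 were higher and 3 lower, and with T003 2 higher and 3 lower, and DESeq2 also called DOT1L higher with DFO. SETD2, which trimethylates H3K36, was at -0.22 (SE 0.034, adjusted p = 0.00275) for DFO, and -0.24 (SE 0.034, adjusted p = 0.00118) for T003. SETD1B, of an H3K4 complex, fell as well, at -0.26 (SE 0.043) for DFO and -0.19 (SE 0.043) for T003, as did the H3K36 methyltransferase NSD1, at -0.14 (SE 0.034) for DFO and -0.15 (SE 0.034) for T003. DOT1L at 0.17 (SE 0.032) and KMT2C at 0.17 (SE 0.046) rose with T003.

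Of 5 genes of DNA methylation the methyltransferase DNMT3B fell with each agent, at -0.15 (SE 0.03) for DFO and -0.16 (SE 0.03) for T003. DNMT1, which maintains methylation, at 0.12 (SE 0.024) and its partner UHRF1 at 0.14 (SE 0.03) rose with T003, and UHRF1 differed between DFO and T003, at -0.16 (SE 0.03, adjusted p = 0.0345). Of 12 writers and readers of N6-methyladenosine 0 were called with DFO by edgeR or limma-voom and 1 by DESeq2, ZC3H13, lower, and 2 had an unadjusted p under 0.05 by edgeR. With T003 the readers YTHDF1 at 0.16 (SE 0.027) and YTHDF2 at 0.08 (SE 0.022) and the writer subunit CBLL1 at 0.15 (SE 0.029) rose, and ZC3H13, also of the writer complex, fell, at -0.15 (SE 0.033). Of 5 partners of the collagen enzymes COLGALT1, which adds galactose to hydroxylysine, rose with each, at 0.11 (SE 0.024) for DFO and 0.21 (SE 0.024) for T003.

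Of 21 genes of 2-oxoglutarate metabolism 0 were called with DFO by edgeR, where 3 had an unadjusted p under 0.05, and 1 by DESeq2 and by limma-voom, IDH3A, higher. With T003 OGDH, which consumes 2-oxoglutarate, at -0.17 (SE 0.026) and PSAT1, which produces it, at -0.15 (SE 0.04) fell. Of 5 genes of iron and ascorbate supply 0 were called with DFO by edgeR, where 1 had an unadjusted p under 0.05, and 1 by DESeq2 and by limma-voom, NCOA4, lower. With T003 the ascorbate transporter SLC23A2 rose, at 0.18 (SE 0.029), and differed between DFO and T003, at -0.14 (SE 0.029, adjusted p = 0.0473), while NCOA4, the receptor for ferritin autophagy, fell, at -0.12 (SE 0.022).

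Leaving out a library leaves 1 in its group, so an ended call does not by itself show dependence on that library. Most calls on genes of these lists also ended in at least 1 such fit. Of 32 such calls at 24 h, TFRC and PDGFRB included, 11 passed under all 17 alternatives, among them those of TFRC, PDGFRB and SETD2 with each agent, and YTHDF1, COLGALT1, OGDH and SLC23A2 with T003. The other 21, among them every DFO call on KDM1A, NSD1, SETD1B, DNMT3B and COLGALT1 and both calls between the agents, ended without at least 1 library, with highest adjusted p values of 0.0513 to 0.290, and 0 changed direction.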

How the data were processed

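The authors deposited estimated counts per gene symbol, all whole numbers and not normalized. According to the design text and the submitters' processing notes, fastp 0.21.0 trimmed the reads, HISAT2 2.2.1 aligned them to hg38, and StringTie 2.1.6 did the counting with RefSeq annotation. The design text names 24 h alone, and groups follow the sample titles, which also give 6 h.

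All 10 libraries entered 1 edgeR 4.0.16 model (R 4.3.3) with a term for group, TMM scaling and filterByExpr (minimum count 10). Each of 8 comparisons used the quasi-likelihood F-test, adjusted by Benjamini-Hochberg, and SE was taken as |log2 fold change| over the root of F. The procedure was also run on counts simulated from its own fitted dispersions, a check of the code that lends no support to the calls above. The 17 alternatives were RLE scaling, no filter, 1 CPM in 2 libraries, DESeq2 1.42.0 without independent filtering, limma-voom (limma 3.58.1), a replicate block, the compared groups alone and each library left out. Gene coordinates and promoters are RefSeq's (GRCh38.p14), and lengths and overlaps GENCODE v44's.

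Members named in full were those called in any comparison, then, in a family with none, the one with the smallest p at 24 h, then untested ones. Genes of other lists were named where called at 24 h against untreated cells or between agents, at most 5 a list, with TFRC as a check. The members and lists were chosen with earlier results of these data known. Values of some genes of the other lists are not reported here.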

Additional observations from a re-analysis of the deposited data

Results flagged for a closer look

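Some transcript levels differed between agents or times by a test of that difference. DFO minus T003 at 24 h was -0.11 for KDM2A and -0.11 for OGFOD1 (log2). Both of these calls ended with no filter, with the replicate block and with the compared groups alone. The change from 6 h to 24 h of DFO was -0.09 for KDM2A, -0.17 for KDM4A, -0.12 for KDM5A, -0.27 for KDM6A, 0.47 for KDM6B, -0.68 for KDM7A, -0.25 for ALKBH3, 0.23 for ALKBH4 and -0.82 for PLOD2. With T003 it was -0.13 for KDM4A, -0.23 for KDM6A, 0.51 for KDM6B, -0.73 for KDM7A, 0.13 for TET3, -0.24 for ALKBH3, 0.21 for P4HA1, -0.20 for PLOD1, -0.62 for PLOD2, 0.19 for OGFOD1 and 0.18 for OGFOD2. Of these changes over time, the calls of KDM2A, KDM4A, KDM5A and ALKBH4 with DFO and OGFOD2 with T003 ended with the compared groups alone. That of P4HA1 with T003 ended with no filter. Further calls ended with a library left out. Groups of 2 libraries were too small to look for a single outlying library.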

How the results depend on the processing

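Of 41 calls on single members over the 8 comparisons, 15 passed under all 17 alternatives and 0 changed direction. Counts of members called with DFO at 24 h were 8 in the full model, 4 with the compared groups alone and 2 to 9 without single libraries. DESeq2, limma-voom and 1 CPM in 2 libraries each added KDM5C, P4HA1 and ALKBH8 to the members called with DFO. Member counts were 11 under each of these settings, where 1687, 1520 and 1582 of all tested genes passed, beside 1349 in the full model. With T003 at 24 h they were 11, 12 by limma-voom (PHF2 added), 13 with 1 CPM in 2 libraries (PHF2 and JMJD6 added), and 5 to 11 without single libraries. For DFO against T003 at 24 h the count of 2 became 0 with no filter, 0 with the replicate block, 0 with the compared groups alone, and 0 to 1 without single libraries, and 3 by DESeq2, by limma-voom and with 1 CPM in 2 libraries (TET3 added). Between 6 h and 24 h the count with DFO was 9, 5 with the compared groups alone and 3 to 8 without single libraries, and with T003 it was 11, and 5 to 11 without them. KDM3A with DFO was added with 1 CPM in 2 libraries (adjusted p = 0.0267) and RIOX2 without DFO 24 h replicate 1 (0.0205). In the 3 comparisons at 6 h all 17 alternatives gave 0. Calls over all tested genes moved too. With DFO at 24 h they were 1349, and 851 with the compared groups alone. With T003 at 24 h they were 2524, 2686 by limma-voom and 2867 with 1 CPM in 2 libraries. Between the agents at 24 h they were 270, 261 with no filter, 117 with the replicate block and 55 with compared groups alone. DESeq2 called 701 there, limma-voom 380 and 1 CPM in 2 libraries 446. The cause of the changes in member counts was not tested, beyond the fewer libraries in some fits. The labels do not say what replicate numbers share, and correlations cannot settle whether they pair the libraries. Over 10 pairs of groups the correlation of same-numbered deviations ran from -0.234 to 0.162, and 3 were over 0.1. The replicate block ended the calls of KDM2A and OGFOD1 between the agents at 24 h, and, between 6 h and 24 h, those of ALKBH4 with DFO (adjusted p = 0.056) and OGFOD2 with T003 (0.059), and no other call on a member. It also ended those of KDM1A with DFO, of YTHDF2 with T003, and of UHRF1 and SLC23A2 between the agents at 24 h. Uncalled values near 0 turned sign: KDM2A with T003 at 24 h, 0.0018 in the full model, was -0.0077 with no filter, -0.0050 with 1 CPM in 2 libraries and -0.0074 to 0.0083 without single libraries. With DFO at 24 h ALKBH4 ran from -0.0358 to 0.0740 and OGFOD2 from -0.0654 to 0.0064 without single libraries.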
